A study of Homo sapiens with 6 samples.

Results

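The small RNA silencing machinery was read here through 10 genes that process microRNAs or carry out silencing: DROSHA, DGCR8, XPO5, DICER1, TARBP2, the 4 Argonaute genes AGO1 to AGO4, and TNRC6A. They were chosen by symbol, and all 10 were found among the 19977 gene symbols of the deposited table under their current names. The cells were U2OS, a human osteosarcoma line. They received either a control siRNA without a target (siCtrl, 3 libraries) or an siRNA against NUDT5, and RNA was taken 48 hours later. NUDT5 encodes a NUDIX hydrolase that cleaves ADP-ribose, and its knockdown group (siNUDT5) also has 3 libraries. All 6 libraries came from cells grown in serum-containing medium and labelled untreated. Both groups had received a small RNA, and no library of untransfected cells was analysed here. The values are TPM, a share of all transcripts in a library, which are scaled for transcript length and library total. Levels of different genes are therefore set side by side, although the transcript lengths used for the scaling are not stated.

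A microRNA begins as a hairpin within a longer nuclear transcript. The Microprocessor, made of the nuclease DROSHA and its RNA-binding partner DGCR8, cuts the hairpin out, exportin 5 (XPO5) carries it to the cytoplasm, and DICER1 with a double-stranded RNA-binding partner such as TARBP2 trims it to a short duplex. An Argonaute protein keeps a single strand of the duplex as its guide, and proteins of the TNRC6 (GW182) family link Argonaute to the enzymes that shorten the poly(A) tail of the bound mRNA. A transfected siRNA duplex skips the nuclear steps and enters at the Argonaute step. AGO2 is the Argonaute whose slicing of perfectly matched targets siRNA knockdown relies on.

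NUDT5 itself read 46.2, 48.999 and 52.0 TPM in siCtrl 1, 2 and 3 against 3.04, 2.74 and 2.67 TPM in siNUDT5 1, 2 and 3, which leaves a mean of 2.82 beside 49.1 TPM. The libraries' labels therefore matched the target gene in all 6. An exact two-sided permutation test gave p = 0.1, the lowest value that a permutation of 3 against 3 libraries can reach. siCtrl 2 stood apart from the other libraries: it had 64.1% of the relative depth of siCtrl 1, where the others had 89.4% to 118%, and its median absolute log2 difference from siCtrl 1 and siCtrl 3 was 0.296 and 0.227, against 0.0967 to 0.134 in the other within-group pairs. Of 9 osteoblast-lineage markers, whose summed level was 4072 to 4366 TPM in siCtrl and 4779 to 4883 TPM in siNUDT5, 6 had a mean of at least 1 TPM, whereas SP7 was listed at 0 throughout and BGLAP and COL1A2 stayed under 1 TPM. Telomerase (TERT), which this line is known to lack, reached at most 0.0411 TPM. Of 15 markers of other cell types 12 stayed under 1 TPM in every library and 6 were listed at 0 throughout. Their summed level was 12.4 to 16.5 TPM in siCtrl and 9.95 to 10.4 TPM in siNUDT5. The largest of them was epithelial EPCAM, at 7.18, 12.8 and 9.68 TPM against 5.10, 5.38 and 5.70 TPM. The part of these marker differences in the results was not tested.

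None of the 10 genes changed past the threshold after NUDT5 knockdown. With limma on log2(TPM + 1) across 12236 genes, 0 of the 10 reached a Benjamini-Hochberg adjusted p under 0.05, where 16.1% of all tested genes did. At an unadjusted p under 0.05, 2 of the 10 did, TARBP2 and TNRC6A, against 31.0% of all genes. All 10 passed the filter of a mean of at least 1 TPM. Their log2 changes ran from -0.18 (AGO1) to 0.33 (TARBP2), with a median of 0.09, beside a median of 0.05 over all tested genes. The 95% intervals of all 10 lay between -0.36 and 0.62 on the log2 scale. In these bulk libraries, less RNA per cell and fewer cells with the RNA cannot be told apart. The labels do not state whether each library is a culture of its own. The p-values therefore rest on library-to-library spread that may be technical.

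**Figure D1:**
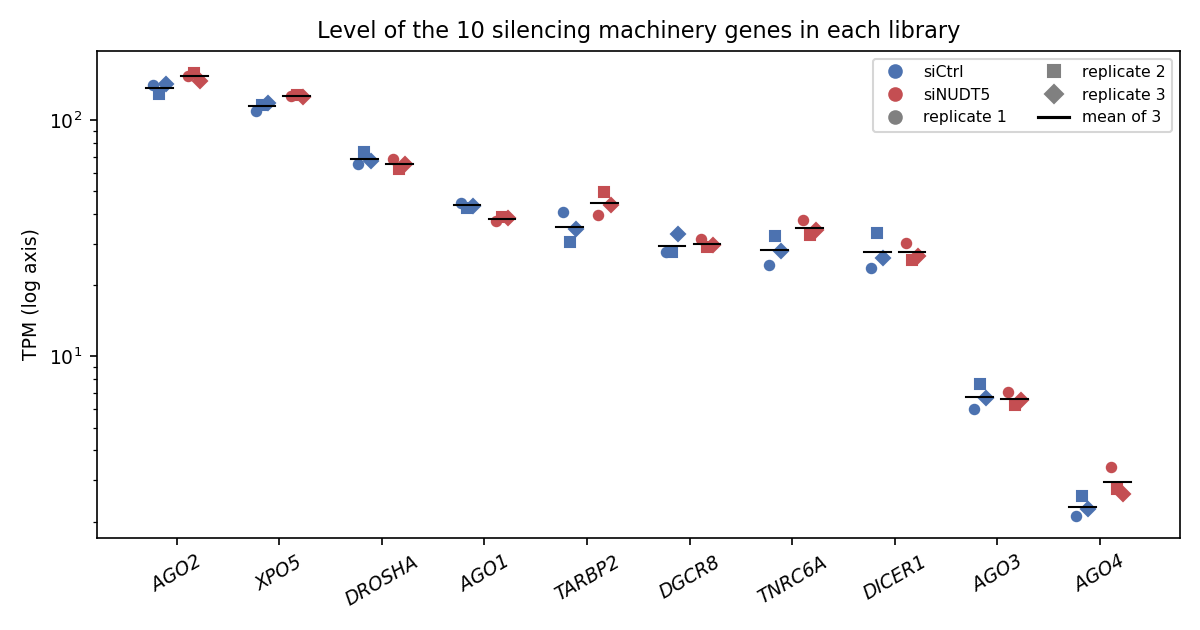
TPM of the 10 silencing machinery genes in each of the 6 libraries on a log axis, ordered by their siCtrl mean. Blue points are siCtrl, red points are siNUDT5, the shape gives the replicate number and the black line is the mean of 3 libraries. AGO2 was the highest, with a siCtrl mean of 137 TPM, and AGO4 the lowest, with 2.32 TPM.

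In 5 of the 10 genes the groups were fully separate, 4 higher in siNUDT5 (AGO2, AGO4, XPO5 and TNRC6A) and 1 lower (AGO1). Of all tested genes 37.3% had groups that do not overlap. Over the whole range the members' siCtrl means ran from 2.32 to 137 TPM, while no member's mean differed between the groups by more than 26.5%. Neighbours in the order could lie closer than that. In siCtrl the order ran from AGO2 at 137 ± 7.03 TPM through XPO5 at 114 ± 4.44, DROSHA at 68.7 ± 3.95 and AGO1 at 43.6 ± 1.17 TPM (SD, n = 3 each). TARBP2 (35.3 ± 5.14 TPM), DGCR8 (29.5 ± 3.11), TNRC6A (28.2 ± 4.05) and DICER1 (27.8 ± 5.04) followed, and neighbours among these 4 overlapped in their siCtrl libraries. AGO3 at 6.76 ± 0.817 TPM and AGO4 at 2.32 ± 0.234 TPM came last, each without overlap with its neighbour. For scale, the median tested gene had a mean of 22.4 TPM.

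Neither Microprocessor gene passed the threshold. DROSHA read 65.5, 73.1 and 67.4 TPM in the siCtrl libraries, in order of replicate number as in all such lists here, against 68.9, 62.3 and 65.3 TPM after NUDT5 knockdown. The groups overlapped, with siCtrl 2 the highest of all 6, and the log2 change came to -0.07 (standard error 0.0848, adjusted p = 0.642). DGCR8, which recognises the hairpin together with DROSHA, stood at 27.6, 27.8 and 33.1 TPM against 31.4, 28.96 and 29.5 TPM. Here siCtrl 3 was the highest library and the groups overlapped (log2 change 0.03, 95% interval -0.20 to 0.26, adjusted p = 0.895). The log2 ratio of DROSHA to DGCR8 averaged 1.222 ± 0.185 under control and 1.13 ± 0.0194 under knockdown (SD over 3 libraries). An exact two-sided permutation test of this ratio gave p = 0.5, and p = 0.625 adjusted over the 10 shares and ratios tested.

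XPO5, the export receptor, was slightly higher in each siNUDT5 library. Its values were 109.5, 116 and 118 TPM in siCtrl and 126, 128 and 125 TPM in siNUDT5. The groups did not overlap, yet the difference of 10.6% did not pass (log2 change 0.14, standard error 0.0728, adjusted p = 0.216). Its 95% interval ran from -0.02 to 0.31.

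DICER1, the nuclease that trims the hairpin to a duplex, had nearly equal means in the groups (27.8 and 27.6 TPM) and the largest standard error of the 10 genes, 0.135. It stood at 23.8, 33.5 and 26.2 TPM in siCtrl and at 30.3, 25.7 and 26.6 TPM in siNUDT5. siCtrl 2 was the highest library and siCtrl 1 the lowest, so the spread within siCtrl exceeded any difference between the groups. The log2 change was -0.00147 with a 95% interval of -0.31 to 0.31 and adjusted p = 0.996. Without siCtrl 2 it was 0.13 (adjusted p = 0.303).

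TARBP2, the Dicer partner that also helps load Argonaute, had the largest change of the 10 on the log2(TPM + 1) scale with all 6 libraries. In mean TPM it was 25.9% higher, beside 26.5% for AGO4, and without siCtrl 2 TNRC6A had the largest log2 change. It stood at 40.7, 30.5 and 34.7 TPM in siCtrl and at 39.9, 49.5 and 43.9 TPM in siNUDT5. siCtrl 1 lay above siNUDT5 1, so the groups overlapped. The log2 change was 0.33 (standard error 0.127, 95% interval 0.04 to 0.62) with adjusted p = 0.120. It passed without siCtrl 1, at 0.43 with adjusted p = 0.0429, where 16.95% of all genes passed. Leaving out siCtrl 2, the library with the lowest value, gave 0.23 with adjusted p = 0.106. The other partner of Dicer in human cells, PRKRA (PACT), was the more abundant, at 88.3, 119 and 90.2 TPM in siCtrl and 100.8, 84.7 and 81.5 TPM in siNUDT5 (log2 change -0.15, adjusted p = 0.508). The log2 ratio of TARBP2 to PRKRA went from -1.48 ± 0.432 to -1.001 ± 0.296 (SD, n = 3 each), with overlapping groups and an exact permutation p = 0.2 (0.5 adjusted).

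**Figure D2:**
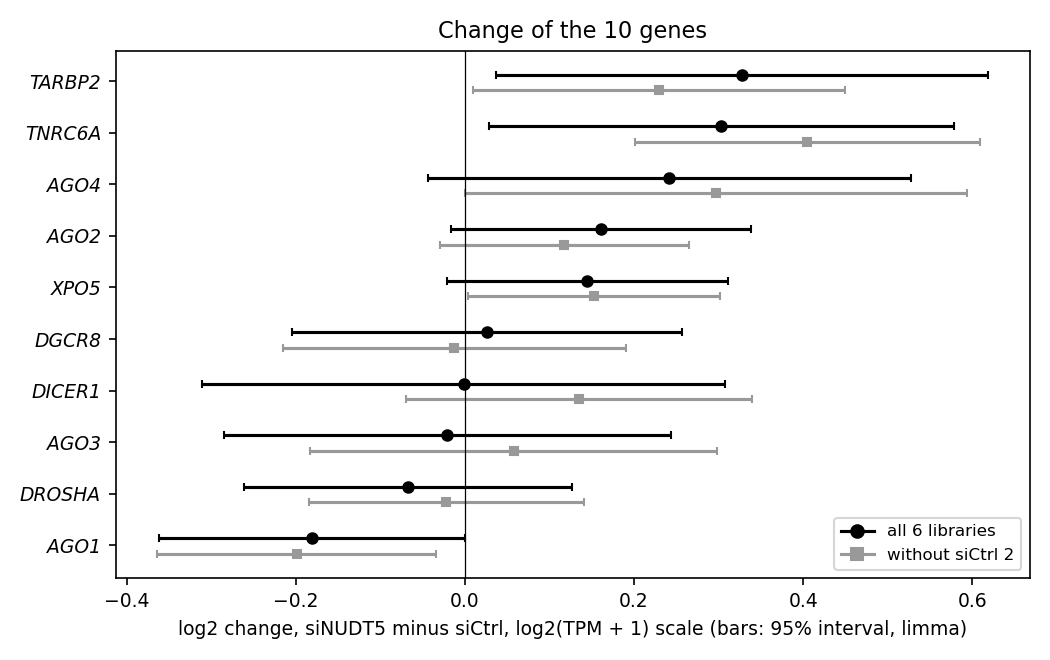
Log2 change of each of the 10 genes, siNUDT5 minus siCtrl, on the log2(TPM + 1) scale, with 95% intervals from limma. Black circles use all 6 libraries and grey squares leave out siCtrl 2. With all libraries no gene passed an adjusted p of 0.05, and without siCtrl 2 TNRC6A did, at 0.40.

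Among the Argonautes, AGO2 was the main transcript and AGO1 the next. AGO2 stood at 140, 129 and 142 TPM in siCtrl and at 154, 159 and 147 TPM in siNUDT5. Every siNUDT5 library was above every siCtrl library, and the log2 change of 0.16 (standard error 0.0776, adjusted p = 0.200) did not pass. AGO1, which binds small RNAs but is a poor slicer, was lower after knockdown, with 44.8, 42.5 and 43.5 TPM in siCtrl and 37.6, 39.1 and 38.4 TPM in siNUDT5. Its groups did not overlap either, and the log2 change came to -0.18 (standard error 0.0793, adjusted p = 0.162). AGO3 stood at 5.99, 7.62 and 6.66 TPM against 7.08, 6.25 and 6.54 TPM, with overlapping groups (log2 change -0.02, adjusted p = 0.931). AGO4 stood at 2.12, 2.57 and 2.26 TPM against 3.42, 2.74 and 2.63 TPM. Its groups did not overlap, by a margin set by siCtrl 2 and siNUDT5 3 (log2 change 0.24, 95% interval -0.04 to 0.53, adjusted p = 0.228).

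As shares of the summed Argonaute TPM, AGO2 made up 72.6%, 71.0% and 73.0% in siCtrl and 76.3%, 76.7% and 75.5% in siNUDT5. AGO1 made up 23.2%, 23.4% and 22.4% against 18.6%, 18.9% and 19.8%. The group means differed by 3.96 percentage points for AGO2 and by -3.92 for AGO1, more than the spread within either group. In each the exact two-sided permutation test gave p = 0.1, its smallest possible value, and p = 0.333 adjusted over the 10 shares and ratios. AGO3 and AGO4 together stayed small, with means of 3.57% and 1.224% in siCtrl and 3.30% and 1.46% in siNUDT5, and overlapping groups. The summed Argonaute level was 189.7 ± 7.02 TPM under control and 201 ± 6.37 TPM under knockdown (SD over 3 libraries).

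**Figure D3:**
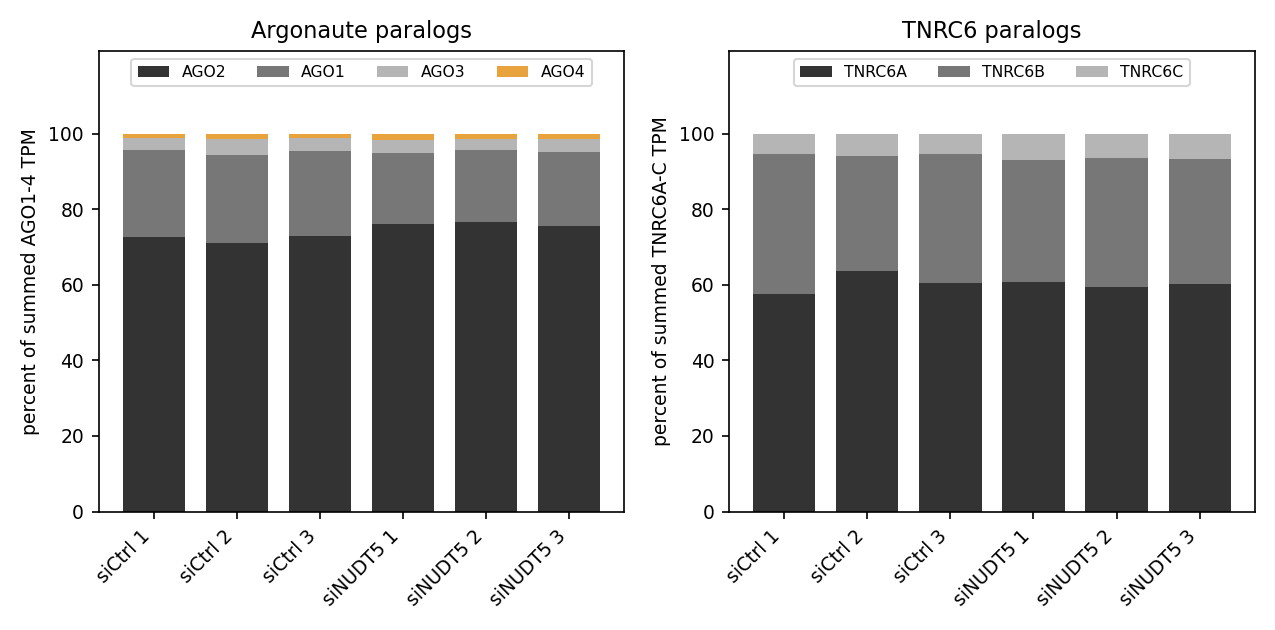
Share of each paralog in the summed TPM of AGO1 to AGO4 (left) and of TNRC6A, TNRC6B and TNRC6C (right), in percent, with a stacked bar for each of the 6 libraries. AGO2 took 71.0% to 73.0% in siCtrl and 75.5% to 76.7% in siNUDT5, and TNRC6A took 57.5% to 63.6% over all 6 libraries.

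AGO4, AGO1 and AGO3 lie next to each other in this order on the plus strand of chromosome 1 (RefSeq, GRCh38.p14), while AGO2 is elsewhere. AGO1 was present at 43.6 TPM in siCtrl against 6.76 for AGO3 and 2.32 for AGO4.

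TNRC6A, which bridges Argonaute and the deadenylases, was higher in siNUDT5 by a narrow margin. It stood at 24.3, 32.4 and 27.9 TPM in siCtrl and at 37.9, 32.6 and 34.2 TPM in siNUDT5. The groups did not overlap, but siCtrl 2 came close to siNUDT5 2. The log2 change was 0.30 (standard error 0.120, 95% interval 0.03 to 0.58) with adjusted p = 0.127. Without siCtrl 2, where 31.1% of all genes passed, it was 0.40 with adjusted p = 0.00611, and TNRC6A was the single member of the 10 to pass.

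Its paralogs were also higher in every siNUDT5 library. TNRC6B stood at 15.7, 15.6 and 15.8 TPM in siCtrl and at 20.2, 18.6 and 18.9 TPM in siNUDT5, a difference of 22.6% that missed the threshold (log2 change 0.28, standard error 0.0877, adjusted p = 0.0658). TNRC6C, the least abundant, stood at 2.23, 3.01 and 2.47 TPM against 4.30, 3.52 and 3.73 TPM. It rose by 0.44 on the log2 scale (standard error 0.127, adjusted p = 0.0480), but missed the threshold when siCtrl 1, siCtrl 3 or any siNUDT5 library was left out (adjusted p = 0.104 to 0.163). With all 6 libraries it also missed at a pseudocount of 0.1 (0.0524), with no filter on low values (0.0712) and under median-ratio scaling (0.0518) or quantile normalization (0.0608). In all, 10 of its 13 alternatives missed the threshold. Without siCtrl 2 its adjusted p was 0.00779, and that of TNRC6B was 0.0339. All 3 paralogs had no overlap between groups, as had 37.3% of all tested genes. The summed TNRC6 level was 46.5 ± 4.36 TPM under control and 57.99 ± 3.92 TPM under knockdown (SD over 3 libraries). The share of TNRC6C went from 5.51 ± 0.344% to 6.63 ± 0.239% (exact permutation p = 0.1, 0.333 adjusted), while those of TNRC6A and TNRC6B overlapped.

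Beyond the 10 genes, a list of 117 further genes of the pathway and of microRNA host genes was read by role. Of these 107 were in the table and 99 were tested. In all 5 rose and 4 fell, 9.09% of those tested, beside 10.9% of all genes higher and 5.20% lower. Their median log2 change was 0.03. The split by direction moved with the scaling: 4 of the list rose and 7 fell under median-ratio scaling, and 3 and 7 under quantile normalization. Without siCtrl 2 the count was 32, or 32.3% of those tested, beside 31.1% of all genes. Without siCtrl 3 or any single siNUDT5 library it was 4 or 5, or 4.04% to 5.05%, beside 6.26% to 7.01% of all genes.

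The Dicer and Argonaute partners held 2 of the 4 falls among 7 tested genes, where 5.20% of all tested genes fell. TSNAX encodes translin-associated factor X (TRAX), the subunit of the C3PO nuclease that removes the cut passenger strand of an siRNA from Argonaute. It stood at 59.4, 104 and 63.1 TPM in siCtrl and at 38.4, 28.7 and 30.03 TPM in siNUDT5, with siCtrl 2 far above the other controls. It fell by 57.1% (log2 change -1.16, standard error 0.208, adjusted p = 0.00854) and stayed past the threshold in each of the 14 alternative settings or sets of libraries. Without siCtrl 2 the log2 change was -0.91. Its partner in C3PO, TSN (translin), stood at 166, 237 and 177 TPM against 206, 192 and 196 TPM (log2 change 0.05, adjusted p = 0.825). AJUBA, a LIM-domain protein reported to bridge Argonaute and the cap complex, fell from a control mean of 117 ± 5.97 TPM to 73.1 ± 5.11 TPM (log2 change -0.67, SD over 3 libraries, adjusted p = 0.00225). Its relatives LIMD1 (-0.27, adjusted p = 0.0798) and WTIP (0.38, adjusted p = 0.0575) did not pass.

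Among 16 genes of deadenylase complexes and their partners 1 fell, where 5.20% of all tested genes fell. It was PAN3, the subunit through which the PAN2 nuclease meets TNRC6 proteins. It stood at 13.5, 22.2 and 16.3 TPM in siCtrl and at 9.74, 7.40 and 7.85 TPM in siNUDT5. The groups did not overlap, with siCtrl 2 again the highest, and PAN3 fell by 0.96 on the log2 scale (standard error 0.179, adjusted p = 0.00989). Without siCtrl 2 the log2 change was -0.77. Without siNUDT5 3 its adjusted p was 0.0538. The catalytic PAN2 stood at 7.58, 7.49 and 7.43 TPM against 7.10, 7.31 and 7.59 TPM (log2 change -0.03). The other 15, the CCR4-NOT subunits among them, did not pass.

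Of 10 chaperone genes for Argonaute loading 2 rose and none fell, where 10.9% of all tested genes rose and 5.20% fell. DNAJB1, an HSP40 co-chaperone, rose from 137 ± 8.35 to 219 ± 4.82 TPM (log2 change 0.68, adjusted p = 0.001501). FKBP4, an HSP90 co-chaperone, rose from 506 ± 27.3 to 671 ± 10.8 TPM (0.41, adjusted p = 0.00667; SD, n = 3 each). With the replicate number as a block in the fit, FKBP4 missed the threshold (adjusted p = 0.0563). HSP90AA1 and HSP90AB1, the chaperones themselves, had log2 changes of 0.00273 and 0.16 and did not pass. Among 15 nuclear cofactors HNRNPA1, which binds some microRNA hairpins, fell from a control mean of 903 ± 17.5 TPM to 729 ± 4.11 TPM (log2 change -0.31, SD over 3 libraries, adjusted p = 0.0122). Without siCtrl 3 or any single siNUDT5 library its adjusted p was between 0.0627 and 0.0688. With the replicate number as a block it was 0.106. HNRNPA1 has many processed pseudogenes, and the treatment of shared reads was not stated. In small RNA turnover 1 of 13 rose, ZSWIM8, the adaptor of the ligase that degrades Argonaute in target-directed microRNA decay, from 10.5 ± 1.56 to 15.5 ± 1.67 TPM (log2 change 0.53, adjusted p = 0.0308). It missed the threshold in 7 of the 14 alternatives, among them without siCtrl 3 (adjusted p = 0.0851) and without siNUDT5 1, 2 or 3 (0.123, 0.110 and 0.0637). None of 5 export and import genes passed.

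**Figure D4:**
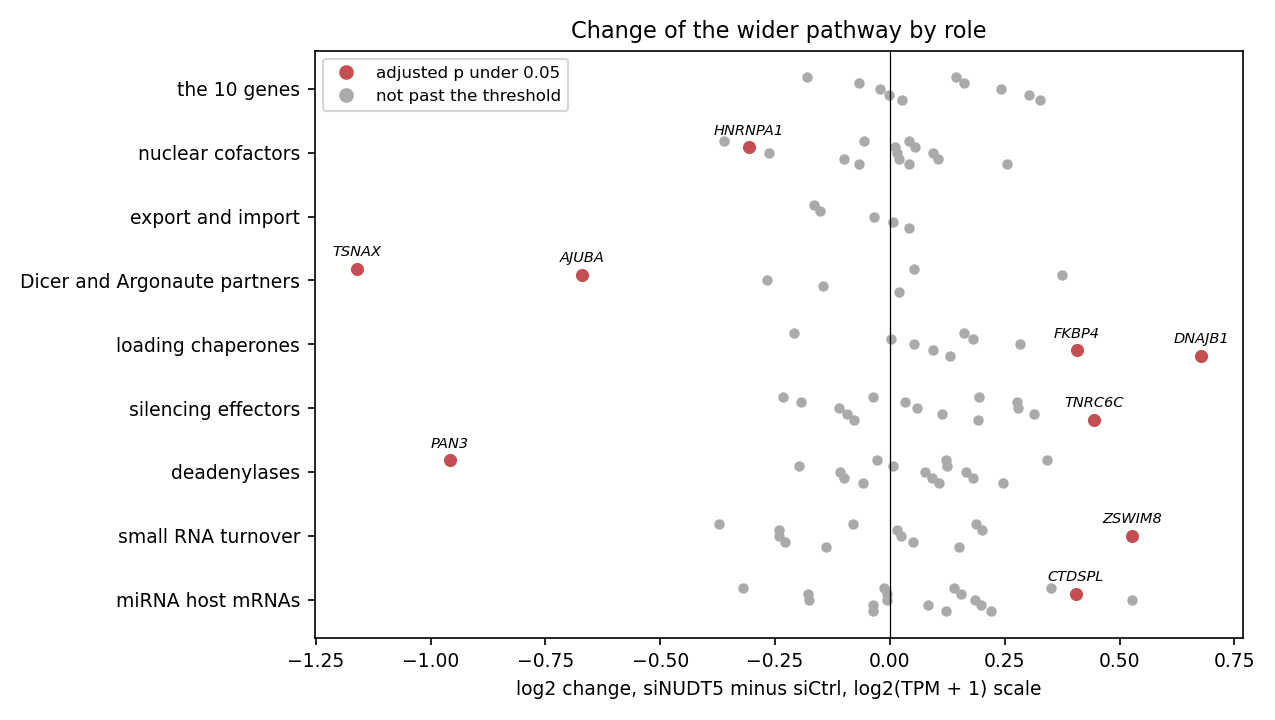
Log2 change, siNUDT5 minus siCtrl, of the 10 genes (top row) and of the 99 other tested genes by role. Each point is a gene, red where its adjusted p is under 0.05. No point of the top row is red, and TSNAX at -1.16 and PAN3 at -0.96 lie farthest to the left.

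Whether the machinery's own mRNAs carry certain 3′ UTR words was looked up, because genes that hold 3 words of 7 bases differed in how often they passed: AAGACTT and AGACTTA for falls and GATTAAC for rises. The words had been picked on these same log2 changes, so their link to the changes is no separate evidence. Taking each gene's longest 3′ UTR in GENCODE 29, AAGACTT or AGACTTA was held by 22.4% of 11915 searched genes, of which 9.64% fell, against 3.87% of those without. GATTAAC was held by 6.21%, of which 22.8% rose, against 10.3% of those without. Genes with and without a word were not matched for 3′ UTR length. Of the 1437 searched genes with at least 4285 bases 57.8% held AAGACTT or AGACTTA.

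All 4 Argonaute genes held GATTAAC, once each, and none of them passed the threshold. Their 3′ UTRs are long, at 10921 (AGO1), 11888 (AGO2), 16755 (AGO3) and 4285 (AGO4) bases, and of the 1437 searched genes with at least 4285 bases 19.7% held the word. DICER1 held AAGACTT and AGACTTA in an overlapping run and DGCR8 held AAGACTT, and neither passed. The other 4 members held none of the 3 words. Below are the places in members, without that of AGO2, which is not shown, and, for comparison, in the 2 genes of the wider list that held a word and fell, as transcript sequence 5′ to 3′ with the word in capitals and 10 bases on either side.
AGO1: tgaagggagtGATTAACaacatgaact
AGO3: gtttaaagttGATTAACttgaaagagt
AGO4: tcttgttattGATTAACcattttctta
DICER1: atcggaaaggAAGACTTAaagttgttag
DGCR8: agcattttgaAAGACTTtcacagtgag
TSNAX: accaatttgtAAGACTTAtttagtattt
PAN3: taattttttaAAGACTTtttctgatct
The DICER1 and TSNAX windows hold the same 8-base run, at bases 74 to 81 and 57 to 64 of their 3′ UTRs, and their log2 changes were -0.00147 and -1.16. In the wider list 22 of 98 searched genes held AAGACTT or AGACTTA. Of these 2 fell, 1 rose and 19 did not pass, while 2 of the 76 without them fell. The riser was TNRC6C, which held AAGACTT at 2 places. Of 5 holding GATTAAC none passed.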

How the data were processed

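RNA was measured in 6 U2OS libraries, prepared with a strand-specific mRNA kit per the labels' protocols, and grouped by the sample titles. The authors deposited TPM per gene symbol. Each library sums to the same total, and 3074 symbols were listed at 0 throughout. Among the tools in the submitters' processing notes are STAR 2.7.3a and, with no role given, DESeq2 1.22.1, beside the build hg19. The notes at hand do not state the annotation, the TPM method or the strand setting, and the absolute depth is unknown. Relative depth came from genes under 0.3 TPM, from the most common ratio of a gene's values in a library and in siCtrl 1.

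TPM are not counts, so no count model was run. The test was limma 3.58.1 in R 4.3.3 (lmFit, eBayes with a trend, two-sided) on log2(TPM + 1) of the 12236 genes whose mean reached 1 TPM, adjusted over all of them with a threshold of 0.05. This scale understates changes of low genes. The fit was run on simulated data with added changes larger than those of any member and with noise independent between libraries. That run does not show how well changes of the members' size are found. Shares and ratios used exact permutation tests in scipy 1.17.1, and such a permutation of 3 against 3 libraries cannot go below p = 0.1. SDs are of TPM over 3 libraries. In the wider list 4 genes were matched through older symbols (RQCD1, ZCCHC11, ZCCHC6 and PAPD4). Named genes are the 10 members, TNRC6B, TNRC6C, PRKRA, NUDT5, and up to 4 genes past the threshold per role. Relatives and partners beside those genes, and EPCAM, were chosen after their values were seen. The members, lists and 3′ UTR words were chosen with earlier results of these data known. Of tested genes 97.4% had an annotated 3′ UTR (50 bases or more). GENCODE 29 is of another build than hg19, so sequences were taken by symbol only.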

Additional observations from a re-analysis of the deposited data

How the results depend on the processing

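No member tested passed under another pseudocount, filter, scaling, the fit without a trend or the replicate block. With the filter of a mean of at least 5 TPM 9 members were tested, because AGO4 lay below it. Leaving out a library gave 0 to 1 members past the threshold: TARBP2 without siCtrl 1 (log2 change 0.43) and TNRC6A without siCtrl 2 (0.40). The count in the wider list was 9, and 4 to 32 without single libraries. Over all genes it was 1970, and 766 to 3802. Of the 1970, 1334 rose and 636 fell, so rises were in excess. That excess was smaller under median-ratio scaling (1034 rose, 904 fell) and quantile normalization (1018 rose, 965 fell). Deviations of same-numbered libraries from their group means did not go together (correlations -0.426, -0.538 and -0.0449). Deviations from a mean of 3 libraries are not independent, so these values cannot show whether such libraries were handled together. With the replicate block the counts were 0 members, 4 in the wider list and 739 over all genes. Under median-ratio scaling the log2 change was 0.0884 for XPO5 and 0.104 for AGO2 (limma adjusted p = 0.424 and 0.418), smaller than with TPM alone. That of AGO1 was -0.236 (adjusted p = 0.0868), farther from 0. Small changes turned sign. DGCR8 turned to -0.0288 under median-ratio scaling and -0.0316 under quantile normalization, and ran from -0.0173 (without siCtrl 1) to 0.109 without single libraries, with -0.0127 without siCtrl 2 and -0.00712 without siNUDT5 1. AGO3 ran from -0.0931 to 0.0578 (without siCtrl 2), with 0.0145 without siNUDT5 2. DICER1 ran from -0.1025 to 0.135 (without siCtrl 2), with 0.0445 and 0.0207 without siNUDT5 2 and 3. Without single libraries the share difference, in percentage points, ran from -0.515 to 0.0322 for AGO3, from -1.86 to 1.15 for TNRC6A and from -2.47 to 0.859 for TNRC6B, and the log2 ratio difference of DICER1 to DROSHA from -0.00439 to 0.162. The cause was not tested. The unknown absolute depth and 3 libraries per group limit the precision.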

Other observations

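Host mRNAs that carry microRNAs in their introns were read as a further group. Of 30 host genes listed 20 were in the table, and the other 10, non-coding transcripts such as MIR17HG and H19, were not analysed here. Of 18 tested, 1 rose and none fell, beside 10.9% of all tested genes higher and 5.20% lower. CTDSPL, a phosphatase gene that hosts a miR-26a copy, stood at 24.1, 21.6 and 24.1 TPM in siCtrl and at 31.7, 31.8 and 29.7 TPM in siNUDT5 (log2 change 0.40, adjusted p = 0.0201, limma). Without siCtrl 3 or any single siNUDT5 library its adjusted p was between 0.0695 and 0.0997. PANK3, a host of miR-103a, had a log2 change of 0.53 and adjusted p = 0.0627. MCM7, which hosts the miR-106b cluster, had a log2 change of 0.16 and adjusted p = 0.275. Mature microRNAs were not measured here. The germline Argonaute relatives PIWIL1 to PIWIL4 reached at most 0.465 TPM in any library and were not tested.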
